A study of Triticum aestivum and Triticum urartu with 56 samples.

Results

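The 200 genes described here are those with the highest root over embryo RNA-seq level in bread wheat, out of 107891 listed genes. They were chosen by log2((root CPM + 1)/(embryo CPM + 1)), where CPM is a gene's reads over the library's reads on all genes, scaled to a common total. The root and embryo values therefore describe the choice and were put to no test. The spike RNA-seq and the CAGE libraries were not used in the choice. The cultivar Chinese Spring gave 1 root library (roots grown 9 days in Hoagland solution) and 1 embryo library (fresh immature embryos 14 days post anthesis). Spike RNA-seq came from 3 CK and 4 RNAi libraries at the booting stage (Feekes 10). The labels give the spike cultivar as Fielder and the CK genotype as WT, whereas the study's methods name the cultivar JW1 and its results call CK negative control transgenic lines. The RNAi libraries are 4 T0 lines, labelled RLG_7.3_enh_RNAi, that carry a hairpin against a transcript from a retrotransposon-derived enhancer-like element. That transcript is not in the gene table, so the knockdown itself was not checked here. CAGE libraries of Chinese Spring came from root (2), embryo (3), the above-ground part of seedlings (4) and spike (2). These roots and seedlings had grown 9 days, the embryos were taken 14 days post anthesis and the spikes at Feekes 10. Peak lists of the histone marks H3K4me3 and H3K9ac, 1 each, came from spikes of the cultivar JW1, also at Feekes 10. GEO's tissue label reads the same for all Chinese Spring libraries (seedlings), so tissues were taken from the age/tissue label. Whether CAGE and RNA-seq of a tissue came from the same plants is not stated.

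Roots take up water and mineral ions and release compounds into the soil, and genes for this work are often transcribed mainly in root tissue. An immature embryo has cell division and storage programmes in their place, and a spike at booting holds floral organs and developing anthers. Bread wheat is a hexaploid with the subgenomes A, B and D, so most genes exist as homoeologous copies on 3 chromosomes of 1 group. Its gene identifiers carry the chromosome and a number that rises along it, normally in steps of 100, so that neighbouring numbers are neighbouring genes. The files do not pair identifiers with gene names, and the RefSeq gene table at hand matched 0 of the 200. The genes are therefore named by identifier, with no function given, and the labelled tissues could not be checked against marker genes.

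The root-enriched genes lay between 90.2 and 1838 CPM in root, with a median of 169 CPM, from libraries of 20705861 reads on genes in root and 33911272 in embryo. Together they held 4.50% of the root reads and 0.00685% of the embryo reads. In embryo, 86 of them had 0 reads, 41 had 1 to 3 reads, and 15 reached at least 1 CPM, up to 5.16 CPM. The log2 ratio ran from 6.50 to 9.53 with a median of 7.16, whereas its median over all genes with at least 1 CPM in root was 0.36. High root level was not enough to be chosen. A total of 1691 genes were at least as high in root as the lowest of the 200, which make up 11.8% of them. The other 1491 had a lower log2 ratio, in which the 1 CPM added to both tissues also weighs against a lower root level.

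The highest-ranked gene, TraesCS1D02G040500, had 16193 root reads (782 CPM) and 2 embryo reads, a CPM ratio of 13260 with a 95% counting interval from 3670 to 109503. TraesCS5D02G046500 and TraesCS2D02G584600 followed with 11694 and 11114 root reads and 1 embryo read each. All 3 highest-ranked genes lie on the D subgenome. For the 86 genes with 0 embryo reads, a floor of 3 embryo reads (0.0885 CPM) gives a root level at least 1019-fold to at least 4073-fold higher. Intervals and floors cover counting error between reads, not the spread between plants. The 10 highest genes held 18.1% of the root reads of the group, and the most abundant, TraesCS6B02G122200, held 0.184% of the whole root library at 1838 CPM.

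At the edge of the choice, the last gene but 1 (TraesCS7A02G474200) had 1867 root and 0 embryo reads and a log2 ratio of 6.51, and the last (TraesCS2B02G454500) had 2405 and 10 reads and 6.50. The first gene outside (TraesCSU02G001100) had 2170 and 6 reads and 6.49, and the next (TraesCS7A02G023100) had 1815 and 0 reads and 6.47. The root and embryo levels therefore run on without a gap at rank 200, as the plot of root against embryo level shows for the whole group.

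**Figure D1:**
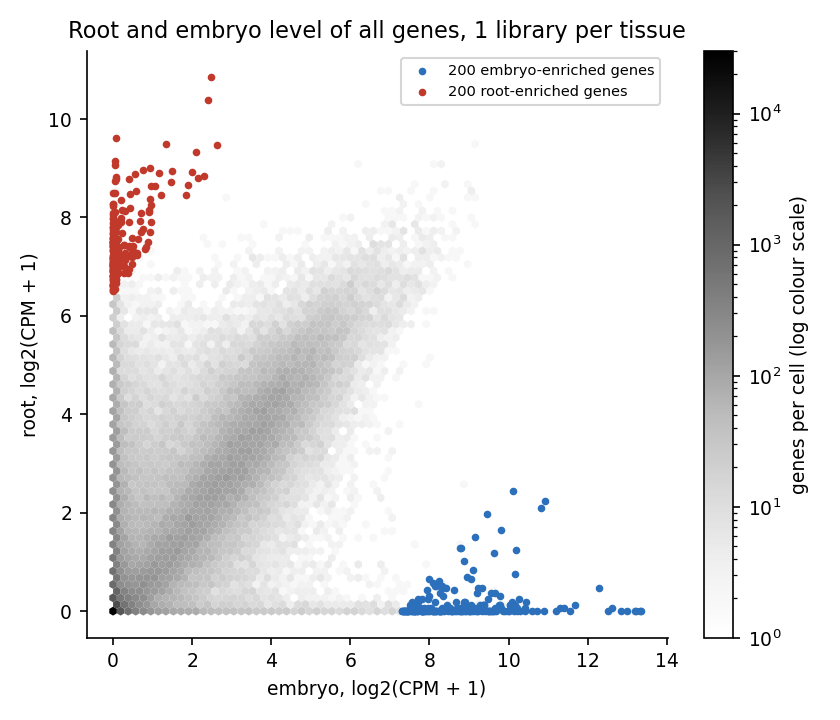
Each gene is placed by log2(CPM + 1) in the embryo library (horizontal axis) and in the root library (vertical axis), with grey cells shaded by the number of genes on a log colour scale. The 200 root-enriched genes (red) lie between 90.2 and 1838 CPM in root and at most at 5.16 CPM in embryo, and the 200 genes with the lowest root over embryo ratio (blue) are shown for comparison.

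The 3 subgenomes were represented in nearly equal numbers. The A subgenome carried 63 of the 200 genes, B carried 69 and D carried 66, and 2 lay on sequence not placed on a chromosome. These are 31.5%, 34.5% and 33.0%, beside 32.8%, 33.0% and 31.7% of all listed genes and 32.5%, 33.4% and 32.9% of genes with at least 1 CPM in root. The 200 embryo-enriched genes, taken from the other end of the same ranking, had 65, 64 and 70. By reads, A held 29.6% of the root reads of the group, B 36.1% and D 33.8%, and the median root level was 161, 172 and 171 CPM. Homoeologues could not be paired by sequence, since no protein or genome sequence was used here, and reads of near-identical copies may have been divided between them.

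The spread over chromosomes was less even than the spread over subgenomes. Group 1 chromosomes carried 39 of the 200 genes, or 2.88 per 1000 listed genes, with 13, 12 and 14 on 1A, 1B and 1D. Group 5 carried 18, or 1.09 per 1000, of which 5A carried 3. The other groups lay between 1.46 and 2.43 per 1000, beside 1.85 for the whole table. Within chromosomes, 63 of 198 placed genes (31.8%) fell in the first or last 10% of the gene order, where 20.02% of all placed genes and 22.6% of the embryo-enriched genes fell. These are descriptions of a chosen list and no enrichment was tested.

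**Figure D2:**
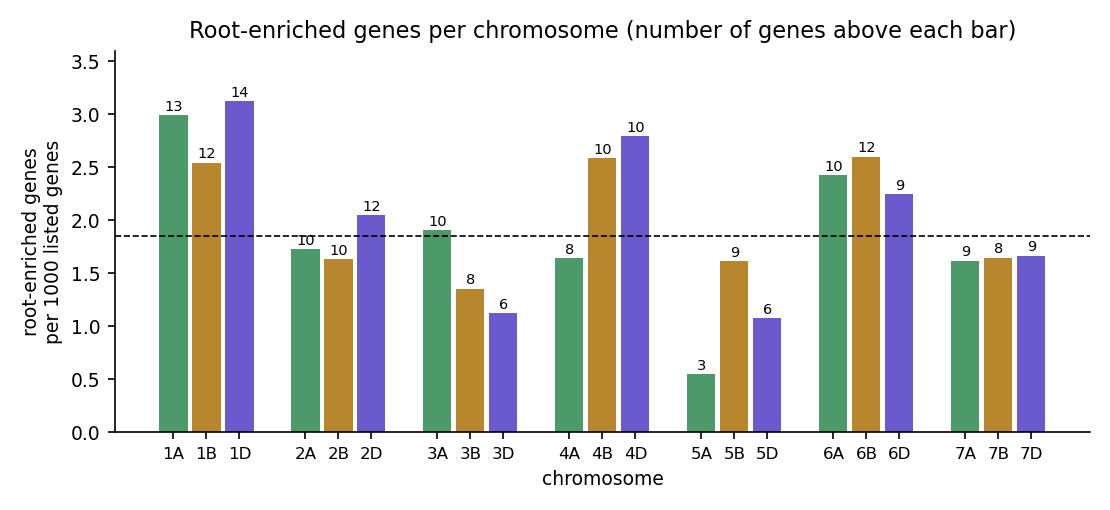
Bars show root-enriched genes per 1000 listed genes of each chromosome, coloured by subgenome, with the number of genes above each bar and the value over all listed genes (1.85) as a dashed line. The 3 group 1 chromosomes stand above the line at 2.55 to 3.12, and chromosome 5A is the lowest at 0.553.

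A minority of the genes were neighbours, and how many chance would give was not tested. With identifier numbers at most 1000 apart, 22 of the 200 genes formed 11 pairs, none larger, and in 7 pairs no listed gene lay between the partners. The embryo-enriched genes had 17 such clusters with 35 genes, 1 of them of 3 genes, and 16 directly adjacent pairs. The pair with the highest rank of any partner was TraesCS4B02G363800 (rank 7, 7461 root reads, 0 embryo reads) beside TraesCS4B02G363900 (3518 and 14 reads). Both partners had 0 embryo reads in 3 pairs. These were TraesCS1D02G096200 with TraesCS1D02G096300, TraesCS5B02G064000 with TraesCS5B02G064100, and TraesCS7D02G201300 with TraesCS7D02G201400. Pairs and the members named below were chosen after their values were seen, apart from the genes of the naming rule.

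In spikes the levels of the group ran from not detected to moderate. FPKM, the unit of the spike files, is the number of fragments on a gene scaled by gene length and library depth. Of the 200 genes, 32 (16.0%) were listed at 0 in all 7 spike libraries, 113 (56.5%) reached a CK mean of at least 0.5 FPKM, 37 (18.5%) at least 10 FPKM and 0 at least 100 FPKM. Over all listed genes these shares were 23.4%, 51.3% and 9.00%, with 407 genes at 100 FPKM or more. The order of the 56.5% and the 51.3% rested on the ranking, since a pseudocount of 0.1 CPM in place of 1 CPM kept 143 of the genes and gave 36.5%. The 1491 other genes at least as high in root stood well above both, with 96.4% at a CK mean of at least 0.5 FPKM and a median CK mean of 20.6 FPKM against 0.84 FPKM for the root-enriched genes. The embryo-enriched genes were lower, with 38.5% at 0 in all 7 libraries and 13% at a CK mean of at least 0.5 FPKM. Of the root-enriched genes whose reads could be recovered from the FPKM values or were 0, 65 of 197 had fewer than 10 reads summed over the 7 spike libraries, so for these a difference between libraries was not detectable at this depth.

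The median FPKM of the root-enriched genes was 1.21, 0.246 and 0.552 in CK replicates 1 to 3 and 0.313, 0.164, 0.279 and 0.458 in the 4 RNAi lines. CK replicates 1 and 3 stood above all 4 RNAi lines, and CK replicate 2 fell among them. Over all genes the same medians were 0.576, 0.240 and 0.577 in CK and between 0.336 and 0.425 in RNAi. The summed FPKM of the root-enriched genes was 2399, 660 and 1868 in CK and 929, 1010, 1372 and 966 in RNAi, or 0.449%, 0.225% and 0.317% of the library's sum in CK and between 0.159% and 0.237% in RNAi. CK replicate 2 had a summed FPKM over all genes of 293545, whereas the other libraries had between 534290 and 589114, and its log2 values correlated with theirs at 0.588 to 0.747 over the tested genes. Of the 105 root-enriched genes with a mean of at least 0.5 FPKM over the 7 libraries, 53 (50.5%) had their highest value in CK replicate 1, which was the highest library for 17.2% of all such genes. Some of the 105 reached this mean only through CK replicate 1. The part of these library differences in the results below is given by leaving each library out.

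**Figure D3:**
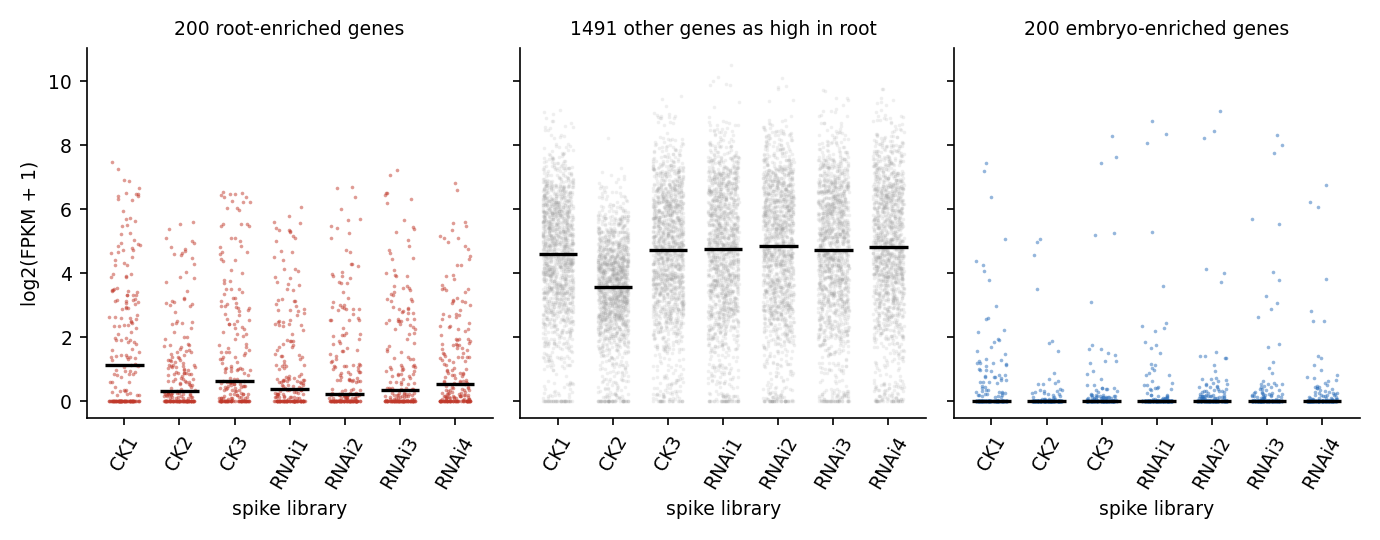
Each point is 1 gene at log2(FPKM + 1) in 1 of the 7 spike libraries, with the library median as a black bar, for the 200 root-enriched genes (left), the 1491 other genes at least as high in root (middle) and the 200 embryo-enriched genes (right). Medians of the root-enriched genes lie between 0.219 and 1.15 on this log2 scale, those of the other root genes between 3.57 and 4.85, and those of the embryo-enriched genes at 0.

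Genes with fewer embryo reads were lower in spikes. Of the 86 genes with 0 embryo reads, 28 (32.6%) reached a CK mean of at least 0.5 FPKM, with a median CK mean of 0.111 FPKM, and 25 were at 0 in all 7 libraries. Of the 41 genes with 1 to 3 embryo reads, 20 (48.8%) reached it, and of the 73 with more, 65 (89.0%), with a median of 6.84 FPKM. By rank, 34 of the first 50 genes reached it, and 28, 23 and 28 of the following groups of 50. By subgenome, 39 of 63 genes (61.9%) on A, 39 of 69 (56.5%) on B and 35 of 66 (53.0%) on D reached it, beside 52.4%, 50.4% and 53.5% of all listed genes, and the median CK mean was 2.26, 0.885 and 0.625 FPKM. No difference between subgenomes was tested.

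The 10 genes with the highest CK means held between 40.8% and 54.4% of the group's FPKM in each library. TraesCS4D02G137000 had the highest CK mean, 96.2 ± 75.9 FPKM (SD, n = 3). TraesCS2B02G540100 followed at 90.7 ± 60.8 FPKM in CK and 74.7 ± 31.2 in RNAi (SD, n = 4), with values of 153, 31.1 and 88.5 in CK and 48.0, 50.7, 87.0 and 113 in RNAi. The groups overlapped. TraesCS2A02G512100, next in order, had a CK mean of 77.0 FPKM with values of 120, 23.2 and 88.2 in CK and 46.8, 44.0, 78.8 and 97.0 in RNAi, which overlapped as well. Of the 3 highest-ranked root genes, TraesCS5D02G046500 and TraesCS2D02G584600 were listed at 0 in all 7 spike libraries. TraesCS1D02G040500 had 2.02, 0.0797 and 0 FPKM in CK and 0, 0, 0.0564 and 10.0 in RNAi. Its highest value stood in RNAi line 4.

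Some neighbours stood at unlike levels in spikes and others were alike. TraesCS3A02G535300 had 84.2, 26.0 and 91.9 FPKM in CK and between 18.1 and 50.1 in RNAi, whereas its partner TraesCS3A02G535100 had 8.90, 0.453 and 1.03 in CK and between 0.437 and 1.12 in RNAi. Both genes of the pair TraesCS1D02G096200 and TraesCS1D02G096300 were at 0 in every spike library. In the pair TraesCS6B02G370000 and TraesCS6B02G370100, the libraries ran in parallel. The former had 14.8, 1.21 and 2.35 FPKM in CK and 0.540, 0.963, 1.52 and 2.82 in RNAi, and the latter 5.23, 0.144 and 0.476 in CK and 0, 0.0793, 0.136 and 0.384 in RNAi. Both were highest in CK replicate 1. In the 5B pair, both partners had all RNAi values below all CK values. TraesCS5B02G064000 had 0.822, 4.41 and 0.966 FPKM in CK and 0.563, 0.59, 0.321 and 0.0472 in RNAi, and its group means were 2.07 and 0.380 FPKM. On the log2(FPKM + 1) scale, which understates the change of low genes, its difference was -0.98 (SE 0.40, limma adjusted p = 0.317). On recovered reads the log2 difference was -3.07 in edgeR (adjusted p = 0.200) and -3.16 in DESeq2 (adjusted p = 0.0358), and the gene passed the study's thresholds in 9 of 21 settings.

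RNAi and CK spikes were then compared to ask whether root-enriched genes were altered when the enhancer-like transcript was targeted. Of the 105 root-enriched genes with a mean of at least 0.5 FPKM, 14 (13.3%) were lower and 2 (1.90%) higher in RNAi at the study's thresholds, an absolute log2 fold change above 1 on the log2(FPKM + 1) scale and an unadjusted limma p under 0.05. The other 95 fell below this mean and were not tested. The mean ran over all 7 libraries, so a gene could pass through a single library. TraesCS5B02G382600 had 29.0 FPKM in CK replicate 1 and at most 0.243 elsewhere, and its log2 difference was below 0. TraesCS1D02G040500 passed mainly through RNAi line 4, at 10.0 FPKM. Over all 55551 genes tested, 4.31% were lower and 5.23% higher. The study itself applied these cutoffs to DESeq2 on read counts. On recovered reads DESeq2 gave 43 of 161 lower and 2 higher at them, beside 9.75% and 3.73% of all its genes. In the limma fit the log2 difference was below 0 for 78 of the 105 genes, with a median of -0.51. It was below 0 for 38.4% of all tested genes, whose median was 0.17. After Benjamini-Hochberg adjustment over all tested genes, 1 root-enriched gene was lower and 0 were higher at an adjusted p under 0.05, beside 0.598% and 0.0306% of all tested genes. At an unadjusted p under 0.05 in limma, 19 were lower and 3 higher, together 20.95% of the group beside 15.02% of all tested genes. After adjustment, edgeR on recovered reads gave 1 of 91 lower and 0 higher, beside 1.12% and 0.0114% of all its genes. The lower share in edgeR was thus near that of all its genes. DESeq2 gave 17 of 161 lower after adjustment (10.6%, beside 2.93% of all its genes) and 0 higher. limma with array weights gave 52 of 105 lower and 6 higher, beside 12.9% and 11.6% of all genes. All 4 RNAi values lay below all 3 CK values for 10 of the 105 genes and above them for 2, against 4.72% and 10.8% of all tested genes. Of the other genes at least as high in root, 16 of 1429 were lower and 173 higher, with a median log2 difference of 0.55. Without CK replicate 2 these were 31 and 28 with a median of 0.21, and with edgeR 61 and 71 of 1399. The difference between the sets was not tested.

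The size of this split depended on the CK libraries. Without CK replicate 1, 11 of 96 tested root-enriched genes were lower and 1 higher, beside 3.05% and 5.28% of all genes. Of the 96, 52 (54.2%) were below 0 and the median was -0.10, beside 33.1% and a median of 0.28 over all genes. Without CK replicate 2, 36 of 105 were lower and 1 higher, beside 5.87% and 1.46%. Below 0 were 91 (86.7%) with a median of -0.90, beside 47.4% and a median of 0.03 over all genes. Without CK replicate 3, 11 of 106 were lower and 5 higher, beside 6.0% and 11.4% of all genes, and without RNAi line 4, 17 and 4 of 105, beside 5.01% and 8.17%. Without RNAi line 1, 11 of 107 were lower and 1 higher, beside 3.35% and 3.11%, and without RNAi line 2, 12 and 1 of 106, beside 3.57% and 3.4%. With edgeR on reads recovered from FPKM, 30 of 91 were lower and 1 higher, beside 10.8% and 3.95% of all genes. The p-values measure the spread between these libraries, and the labels do not say whether the 3 CK libraries came from separate plants. In whole spikes, fewer cells of a type and less RNA per cell cannot be told apart.

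**Figure D4:**
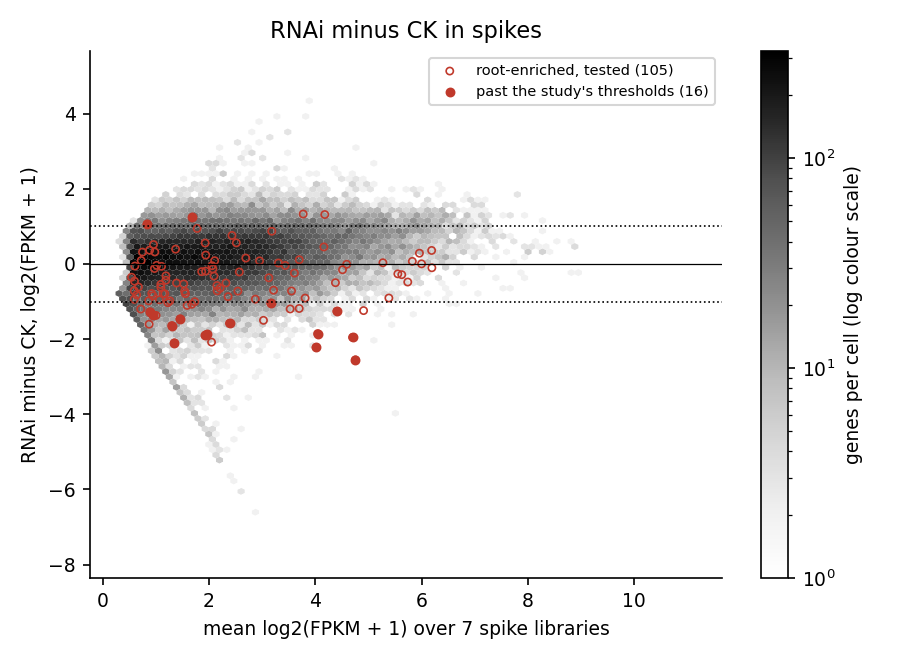
The vertical axis is RNAi minus CK on the log2(FPKM + 1) scale and the horizontal axis the mean over the 7 spike libraries, with all 55551 tested genes in grey (log colour scale), the 105 tested root-enriched genes as red circles and those past the study's thresholds filled. Of the filled points, 14 lie below the lower dotted line at -1 and 2 above the upper line at 1, and 78 of the 105 circles are below 0.

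TraesCS5B02G064100 was the root-enriched gene that passed the adjusted threshold. Its FPKM was 7.71, 7.09 and 6.52 in CK and 1.63, 0.885, 0.717 and 1.6 in RNAi. All RNAi lines lay far below the lowest CK library, on between 18 and 140 recovered reads per library. Its log2 difference was -1.90 (SE 0.28, limma adjusted p = 0.0168). The adjusted p ran from 2.35e-07 to 0.0971 over the 21 settings, and the gene was past the study's thresholds in all 21. Its adjusted p rose above 0.05 without CK replicate 1 and without RNAi line 1, 2 or 3.

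TraesCS4A02G173300 came next by p. It had 3.51, 1.81 and 1.94 FPKM in CK and 0.205, 0.264, 0.0753 and 0.697 in RNAi, from between 1 and 22 recovered reads a library. The groups did not overlap, and the log2 difference was -1.37 (SE 0.29, limma adjusted p = 0.0932). The 2 genes higher in RNAi were low in all libraries. TraesCS7B02G127700 had 1.63, 1.17 and 0.339 FPKM in CK and 4.63, 2.86, 3.31 and 4.09 in RNAi (log2 difference 1.25, SE 0.31, limma adjusted p = 0.164). TraesCS7A02G474200, the last gene but 1 in rank, had 0.185, 0 and 0.362 in CK and 2.67, 3.38, 0.516 and 0.478 in RNAi (log2 difference 1.06, SE 0.43, limma adjusted p = 0.314). In both genes every RNAi line was above every CK library, and the groups of the latter came close to each other.

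Among the other lower genes, TraesCS6A02G222100 had low levels and no overlap between the groups, with 7.68, 1.42 and 3.98 FPKM in CK and 0.343, 0, 1.20 and 0.778 in RNAi. TraesCS4D02G137000 had 176, 25.1 and 87.3 FPKM in CK and 6.29, 6.98, 11.3 and 35.1 in RNAi. RNAi line 4 lay above CK replicate 2. TraesCS4A02G175600 had 117, 18.7 and 76.3 in CK and 11.7, 5.56, 14.6 and 33.6 in RNAi, and TraesCS1B02G135800 had 88.0, 13.8 and 44.0 in CK and 4.16, 2.14, 10.1 and 26.3 in RNAi. In all 3 genes the order of the libraries from the top was CK replicate 1, CK replicate 3, RNAi line 4, CK replicate 2 and RNAi line 3, and the 2 remaining lines were lowest. Of the 14 lower genes, 7 had groups without overlap, 9 had their highest value in CK replicate 1, 9 stayed past the thresholds without that library and 11 without CK replicate 2. Genes picked for being lower in RNAi tend to show this, and the same shares were not taken over all lower genes. By subgenome, 7 of 36 tested were on A, 6 of 36 on B and 1 of 33 on D, beside 4.91%, 3.83% and 4.13% of all genes tested on these subgenomes, and the difference between subgenomes was not tested. TraesCS6B02G122200, the most abundant of the root-enriched genes in root, was among the 14 lower genes. It had 10.2, 15.3 and 12.5 FPKM in CK and 4.18, 6.40, 6.38 and 5.61 in RNAi (log2 difference -1.04, SE 0.30, limma adjusted p = 0.221).

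CAGE, which counts the capped 5′ ends of transcripts (tags), gave another measure of root against embryo. The start clusters listed for genes could be read for chromosome 1A, where 10 of the 13 root-enriched genes had at least 1, out of 1386 genes with clusters. These clusters were called on the same CAGE libraries, so a gene with tags in root alone was listed because of root. This held for 3 of the 10 and for 91 of the 1386 genes, and the counts over the 10 genes are therefore a description and no independent support. The libraries held between 2970800 and 24399682 tags, and levels are given as CPM of these totals. For all 10 genes both root libraries were above all 3 embryo libraries, as were 41.6% of the 1386 genes, and for 9 both root libraries were above all 9 others, as were 18.1%. In edgeR's quasi-likelihood fit of root against embryo, 5 of the 10 were higher and 0 lower at a Benjamini-Hochberg adjusted p under 0.05, beside 2.16% and 0.144% of the 1386 genes. The fitted log2 difference was above 0 for all 10 in edgeR and in DESeq2, and the largest edgeR adjusted p of the 10 was 0.102. The spread between libraries was large (common dispersion 2.03). Leaving out any 1 of the 3 embryo libraries left 1 of the 10 genes called higher, beside 0.649% to 0.722% of all genes tested.

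TraesCS1A02G234600 had the most tags, at 1210 and 1238 CPM in root and 0.0661, 0 and 1.1 in embryo (chr1A:410152790-410153001, plus strand, IWGSC RefSeq 1.0). Its root over embryo ratio was 2033 with a 95% counting interval from 1354 to 3207 (edgeR adjusted p = 0.00262). The gene was also high in seedlings, between 200 and 533 CPM in the 4 libraries, and lower in spikes at 9.53 and 12.0. TraesCS1A02G248700 had 586 and 566 CPM in root, 3 tags in all embryo libraries together, up to 3.44 CPM in seedlings and 0 in spikes (edgeR adjusted p = 0.0203). TraesCS1A02G265700 had 104 and 115 in root and 1 embryo tag (edgeR adjusted p = 0.0386), and TraesCS1A02G042700 had 113 and 72.1 in root and 1.26, 0 and 0.551 in embryo (edgeR adjusted p = 0.0455). TraesCS1A02G104200 had 68.0 and 73.3 in root and 0 tags in each of the 9 other libraries, at least 906-fold above the level of 3 tags over the embryo libraries. It was the called gene listed through root alone, so its direction was fixed by the listing. The called genes TraesCS1A02G248700 and TraesCS1A02G265700 had 36 and 24 tags outside root, against 15082 and 2916 in root. Their listing, and with it their direction, may also have rested on root.

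The 5 genes that did not pass had fewer root tags, between 3.03 and 38.6 CPM. TraesCS1A02G012600 had 19.3 and 26.0 CPM in root and 0 in embryo, at least 299-fold above the floor (edgeR adjusted p = 0.102). TraesCS1A02G093300 had 26.7 and 23.8 CPM in root and 0 in embryo, at least 315-fold above it (edgeR adjusted p = 0.0853). TraesCS1A02G302100 and TraesCS1A02G231500 were the lowest in root, at 5.43 and 9.2 CPM and at 3.03 and 5.73 CPM, and had 0 tags in every other library.

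Of the 10 genes, 6 had 0 embryo tags in all 3 libraries, 7 had 0 spike tags in both libraries and 3 had 0 seedling tags in all 4. TraesCS1A02G374200 was the gene whose root libraries were not above all others. It had 38.6 and 21.8 CPM in root, 0 in embryo, 53.9, 0, 1.31 and 7.29 in seedlings and 2.3 and 24.8 in spikes. It was also expressed in the RNA-seq spikes, at 26.8, 5.96 and 16.2 FPKM in CK and 39.7, 11.9, 21.2 and 14.0 in RNAi, and the groups overlapped. TraesCS1A02G104200, with 0 tags outside root, was at 0 FPKM in all 7 spike libraries.

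**Figure D5:**
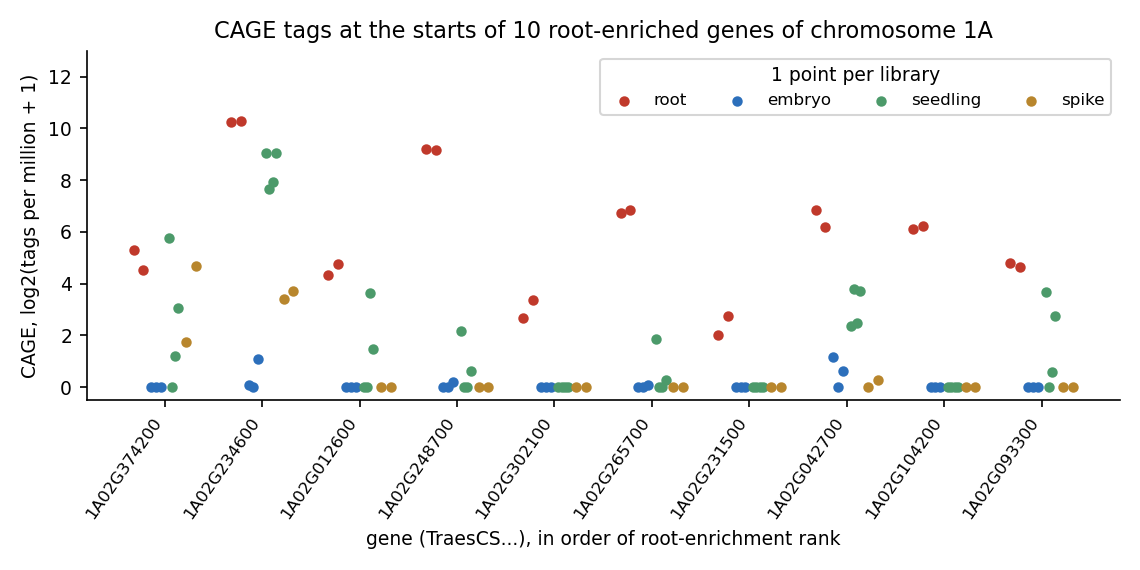
Points show log2(CPM + 1) of each CAGE library at the listed starts of the 10 root-enriched genes of chromosome 1A, in order of rank, coloured by tissue. Root points lie above the embryo points for all 10 genes, and above all seedling and spike points for every gene except TraesCS1A02G374200.

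The genes were also set against H3K4me3 and H3K9ac, histone marks found at the starts of transcribed genes. A peak of H3K4me3 from spikes of the cultivar JW1 lay within 500 bp of the dominant start of 6 of the 10 genes and of 87.4% of the 1386 genes with clusters. A peak of H3K9ac did so for 4 of the 10 and for 81.0% of the 1386. TraesCS1A02G042700 had both peaks over its start, whereas TraesCS1A02G234600, TraesCS1A02G012600, TraesCS1A02G265700 and TraesCS1A02G104200 had neither mark within 500 bp. Each mark had 1 peak list, from another cultivar than the CAGE, so no test was made.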

How the data were processed

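RNA-seq, CAGE and ChIP-seq files were used as deposited. The authors' root and embryo values are read counts on genes, their spike values are FPKM whose denominator is not stated, and their CAGE files give, for each strand and position, the count of reads that began there. The deposited peak lists hold positions (another kind of value, with no score). Per the labels, RNA-seq reads were trimmed with Trim Galore 0.6.4 and mapped with HISAT2 2.1.0, and genes were counted with featureCounts. The study's methods name cutadapt and Bowtie2 for CAGE, and bwa and MACS2 for ChIP-seq. The *T. urartu* CAGE files were not used here.

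The members and lists were chosen with earlier results of these data known. Genes were ranked by log2((root CPM + 1)/(embryo CPM + 1)). Spike groups were compared with limma 3.58.1 (R 4.3.3, mean-variance trend) on log2(FPKM + 1), over 55551 genes with a mean of at least 0.5 FPKM. The tests were first tried on simulated data. In limma, 40.5% of simulated 2-fold changes passed the study's thresholds and 0% the adjusted one, and of 8-fold changes 96.5% and 64%. In CAGE, edgeR recovered 1.5% of simulated 8-fold and 67% of 64-fold changes. A gene that was not called may therefore still differ. Whole reads were recovered from FPKM for 82585 of 82611 genes above 0 and 165 of 168 members, as the shortest length from 30 to 12000 bp at which all 7 values came within 0.003 reads, plus rounding, of whole numbers. edgeR 4.0.16 and DESeq2 1.42.0 were run on these reads. The recovered depth on genes was 2488351, 4156751 and 8379355 reads in CK and 7204336 to 9835343 in RNAi. CAGE tags were summed over the listed start clusters of a gene, second chromosome parts being shifted by 471304005 bp, and tested with edgeR on 11 libraries (TMM on library totals). Alternatives changed the pseudocounts, filters, normalization, tool, replicate block, start windows, the size of the list and each library in turn. The p-values measure the spread between libraries, and precision is set by their number and depth. Replicate numbers did not pair libraries, since deviations from the group means of same-numbered CK and RNAi libraries correlated at -0.0835, -0.0477 and 0.0894.

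Without gene names, the naming rule gave the 2 members lower and the 2 higher in RNAi with the smallest p and no overlap. Sequence groups, markers and printed sequences were not possible without a matching reference.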

Additional observations from a re-analysis of the deposited data

Results flagged for a closer look

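A gap of 1 library from the other 3 above Dixon's 95% critical value for 4 samples was found in 6 of 31 groups of 4 that were looked at. Chance flags about 1 in 20 groups of normally spread values. These FPKM and CPM values were not log-transformed and many are 0, so that rate does not hold here and the 6 cannot be set against it. Among RNAi lines, TraesCS7A02G319100 had 0.410, 0.562, 1.92 and 0.557 FPKM, with line 3 apart (gap over range 0.899), and TraesCS7A02G386800 had 0.107, 0, 1.02 and 10.3 FPKM, with line 4 apart (0.901). Line 4 was above all CK libraries in the latter gene, which was called lower. In CAGE of seedlings, TraesCS1A02G374200 had 53.9, 0, 1.31 and 7.29 CPM (0.865) and TraesCS1A02G012600 had 0, 0, 11.3 and 1.77 (0.843). TraesCS1A02G248700 had 3.44, 0, 0 and 0.553 CPM in seedlings (0.839) and TraesCS1A02G265700 had 2.58, 0, 0 and 0.221 (0.914). In 3 of these 4 genes seedling replicate 1 was the library apart. The part of a single library in these values was not tested.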

How the results depend on the processing

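The 14 lower and 2 higher genes were 25 and 2 with quantile normalization, which moved the median of all genes from 0.17 to 0.06, 51 and 5 with array weights (4.58 for CK replicate 1, 0.141 for CK replicate 2), 30 and 1 with edgeR and 43 and 2 with DESeq2 on recovered reads. The shares of all genes were 5.07% and 3.96%, 9.68% and 6.69%, 10.8% and 3.95%, and 9.75% and 3.73% in the same order, beside 4.31% and 5.23% in the limma fit reported. Leaving out each library in turn gave 11 to 36 lower, 1 to 5 higher and, after adjustment, 0 to 4 lower. With alternatives chosen after seeing the data, edgeR without CK replicate 1 gave 16 lower, 1 higher and 0 lower after adjustment. Without CK replicate 2 it gave 42, 1 and 4 (10.7% and 7.13% of all genes lower, 0.372% and 0.793% after adjustment). DESeq2 without these libraries gave 20 and 49 lower, and 3 and 18 after adjustment (8.92% and 5.79% of all genes lower, 1.87% and 1.91% after adjustment). The 1 lower and 0 higher after adjustment were 52 and 6 with array weights (all genes 12.9% and 11.6%) and 17 and 0 with DESeq2 (2.93% and 0.581%). Numbers did not pair libraries, and the replicate block gave 18 lower, 5 higher and 2 lower after adjustment in spikes and 8 CAGE genes higher in root instead of 5 (all genes 5.69%, 8.55% and 0.812% in spikes and 4.33% in CAGE). CAGE gave 8 with DESeq2 (9.54% of all genes), 8 without TMM (6.57%) and 1 to 4 when a root or embryo library was left out (0.649% to 2.32%). The median log2 difference of all genes was 0.77, 0.41 with DESeq2 and 1.47 without TMM. Ranking with 0.1 CPM as pseudocount kept 143 of the 200 genes and gave 36.5% instead of 56.5% (all genes 51.3%) at a CK mean of at least 0.5 FPKM. The share of genes in clusters of neighbours was 11%, 2% in the top 100 and 19.5% in the top 400, where 9 of 34 clusters held 3 or more genes. Peaks over the start itself were at 2 (H3K4me3) and 1 (H3K9ac) of the 10 genes, beside 74.2% and 57.6% of all genes with clusters. The cause of these changes was not tested. For the 14 lower and 2 higher genes and the 10 CAGE genes, taken singly, 337 values kept direction and side of the threshold. Of the others, 62 lost and 12 gained the call, and 0 reversed. Other genes named above were not counted there, and some changed sign. The log2 difference of TraesCS2B02G540100 ran from -1.09 to 0.406 over the settings. Of the counts and shares of the group, 94 stayed near the reported value and 43 moved. Sequence groups and cell type markers were not run.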
